A study of Hordeum vulgare with 6 samples.

Results

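The cell wall genes described here are 24 of the 605 barley genes that the study listed as bound by HvMADS1 and changed in *mads1*, out of 26933 genes in the deposited table. HvMADS1 is an E-class MADS-box transcription factor, one of the proteins that set the identity and growth of floral organs. Members were selected on their annotation, which had to contain a word for a wall enzyme or wall protein, such as laccase, expansin, cellulose, xyloglucan, pectin or fasciclin. Of the 25 genes whose annotation matched, 1 was set aside by its identifier, and none of the others was among the genes of the study's heat map. The list of 605 had itself been chosen by the difference between *mads1* and WT in these same libraries, at a fold change of at least 1.5 and a false discovery rate below 0.05, and by binding of a GFP-tagged HvMADS1 from transgenic plants in CUT&Tag, a method that cuts and sequences the DNA around a bound protein. The differences between *mads1* and WT below therefore describe the members, and no test of them is reported.

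RNA was sequenced from 3 *mads1* and 3 WT samples of barley cv. Golden Promise, each a pool of tissue from several plants at W7.5, a stage on Waddington's scale of inflorescence development. The *mads1* plants carry a CRISPR-Cas9 knockout of *HvMADS1*. The study made several such lines, and the labels do not name the one sampled. The WT plants are of the same cultivar without the knockout, and both genotypes are labelled as normal growth. No value of *HvMADS1* itself was joined to the table here, so the genotype labels were not checked by the targeted gene. The sampled tissue is described as lemma and awn in the methods and as spikelet in the labels, the lemma being the outer hull of the floret and the awn its needle-like extension. *HvDL*, a YABBY gene of these organs, was at 49.8 to 65.7 FPKM in *mads1* and 80.6 to 96.5 FPKM in WT. The study proposes *HvDL* as a direct target of HvMADS1 and reports it lowered in *mads1*, so its difference does not compare tissue make-up. *HvMADS2*, a B-class gene of lodicules and stamens, was at 6.45 to 7.44 FPKM in *mads1* and 10.8 to 13.3 FPKM in WT. Values are FPKM, fragments scaled to gene length and library size, so that levels can be compared between genes. In bulk tissue, fewer cells of a type and less RNA per cell cannot be told apart.

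WT replicate 1 was the highest WT library for 23 of the 24 members. The same held for 33.9% of all genes tested and for 74.8% of the genes called lower in *mads1* below. The ratio of WT replicate 2 to WT replicate 3 had a median of 0.941 (0.744 to 2.08) over the members. *mads1* replicate 2 was the highest *mads1* library for 18 members, against 29.9% of all genes tested. Correlations of log2 values over all genes were 0.982 to 0.994 within a genotype and 0.884 to 0.941 between genotypes. Values are therefore given library by library, and the counts were repeated without these libraries.

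A plant cell wall is built from cellulose microfibrils, which are made at the plasma membrane, set in a matrix of hemicelluloses and pectins with embedded glycoproteins. Growing walls are loosened by expansins and remodelled by enzymes that cut and rejoin matrix polymers, and in cells that stop growing a secondary wall is laid down and often filled with lignin. The walls of grasses hold little pectin and xyloglucan and much arabinoxylan, and barley awns and lemmas become stiff, lignified organs as they mature. Numbered names such as laccase 17 follow those of *Arabidopsis* genes, and the roles given for them are known from that species.

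All 24 members were lower in *mads1*, and for each of them the 3 *mads1* values lay below all 3 WT values, as for 26.5% of all genes tested. Mean levels ran from 0.0133 to 90.8 FPKM in *mads1* and from 0.4 to 417 FPKM in WT. The *mads1* mean was below 10% of the WT mean for 12 members, between 10% and 30% for 7 and at 30% or more for 5. Members below 10% were found among the cellulose synthases, the xyloglucan enzymes, the expansins, the pectin enzymes, the FASCICLIN-like proteins, the beta-1,3-glucanases and the laccases. At 30% or more were a cellulose synthase, expansin B3, a pectin acetylesterase, a FASCICLIN-like protein and laccase 12, so that most classes held both strongly and weakly lowered genes.

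**Figure D1:**
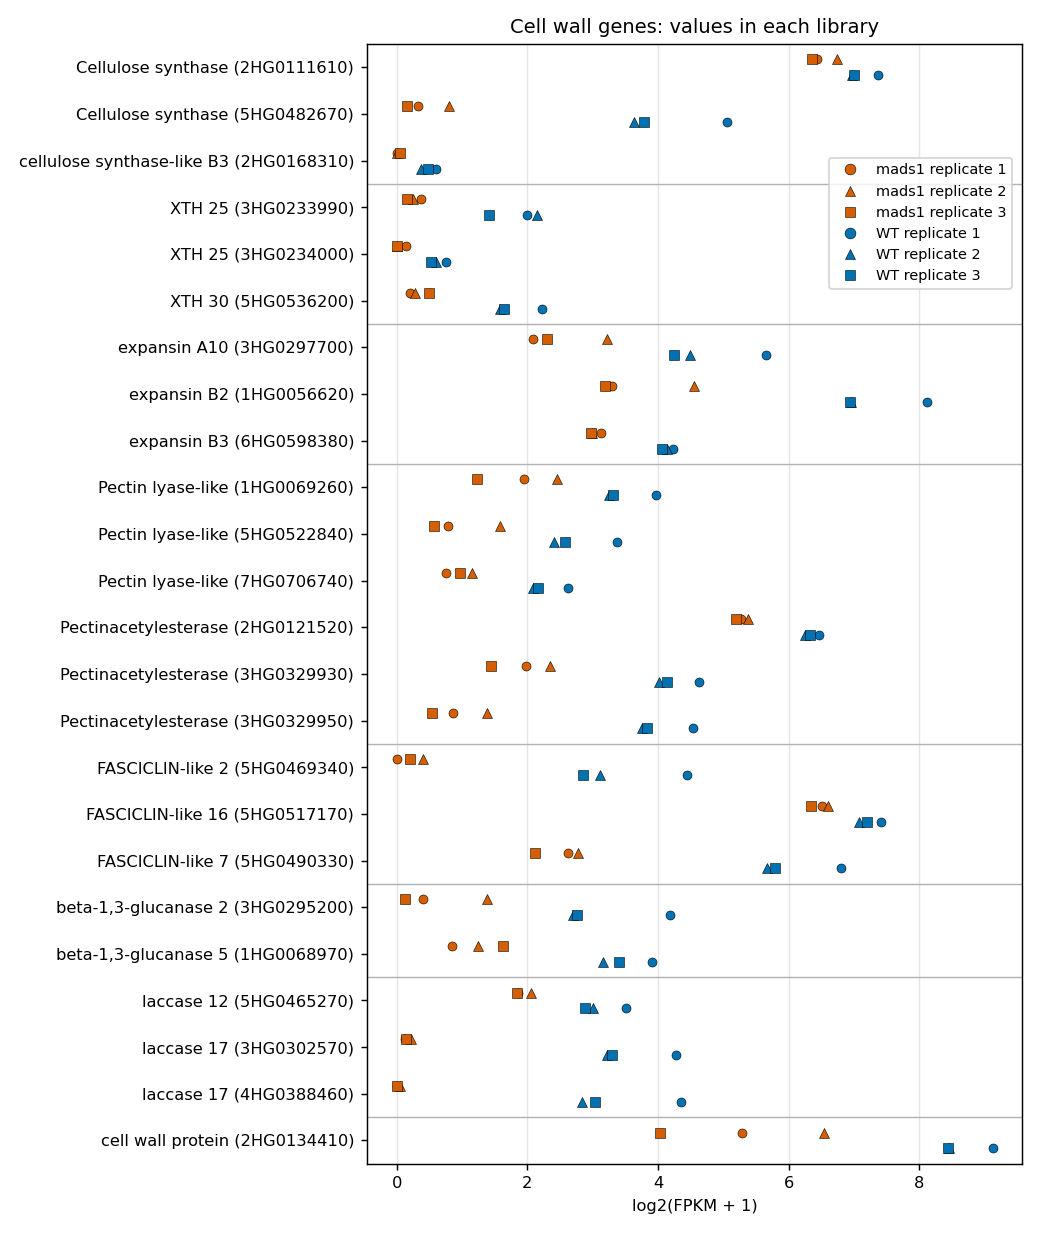
Level of each of the 24 genes in each library, as log2(FPKM + 1), with *mads1* (orange) drawn above WT (blue), the symbol giving the replicate, XTH standing for xyloglucan endotransglucosylase/hydrolase, the end of the identifier in brackets and grey lines parting the wall classes. In each row the 3 *mads1* values lie to the left of the 3 WT values, and the WT circle (replicate 1) is the rightmost in 23 rows.

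Of the 24 members, 22 passed the filter on low values, set at 1 FPKM or more in 3 or more of the 6 libraries. The limma fit over all 17996 genes tested called 2607 genes lower in *mads1*, which is 14.5% of them, and all 22 members that passed were among these. The list was drawn from the same contrast, so nothing is read from that count. Of the 22, 6 were under 1 FPKM in all 3 *mads1* libraries and passed the filter through WT alone. The median log2 fold change, on the log2(FPKM + 1) scale, was -2.25 over the 22 members and -2.03 over all 24, against 0.05 over all genes tested. It was -1.11 over the 519 other listed genes that were tested, of which 82.5% were called lower. This scale understates the change of genes with low FPKM.

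Cellulose is made by cellulose synthases, which sit in complexes in the plasma membrane, and the related cellulose synthase-like proteins make other glucans. Of the 2 genes annotated as cellulose synthase family protein, the one on chromosome 5H (HORVU.MOREX.r3.5HG0482670) was at 0.25, 0.74 and 0.11 FPKM in *mads1*, against 32.4, 11.4 and 12.8 FPKM in WT. It was nearly undetected in *mads1*, at 1.95% of the WT mean, and its log2 fold change of -3.73 was the lowest of all members. The other, on chromosome 2H (HORVU.MOREX.r3.2HG0111610), was at 85.4, 105.9 and 81.1 FPKM in *mads1* and at 164, 124 and 127 FPKM in WT. It was the most abundant member in *mads1* and the least lowered, at 65.6% of the WT mean, with a log2 fold change of -0.60.

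This cellulose synthase gene is also the only member whose 2 identifiers in the study's list name different chromosomes, 2H in the Morex version 3 identifier and 6H in the older one, as do 34 of the 605 pairs. Its annotation and its binding may therefore belong to another gene than its FPKM values. Its call was borderline, lost under some alternatives and kept under the others. The log2 fold change was -0.56 without *mads1* replicate 1, -0.52 without *mads1* replicate 3, -0.47 without WT replicate 1, -0.53 with libraries rescaled to the same total and -0.52 with quantile normalization, each of which is under the fold change limit of 0.585 on the log2 scale.

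The gene annotated as cellulose synthase-like B3 (HORVU.MOREX.r3.2HG0168310) did not pass the filter. Its *mads1* libraries held 0, 0 and 0.04 FPKM and its WT libraries 0.52, 0.29 and 0.39 FPKM. On the log2(FPKM + 1) scale the size of its difference, -0.46, falls short of the limit of 0.585, as does that of a xyloglucan enzyme gene at -0.58. The 2H cellulose synthase at -0.60 and FASCICLIN-like arabinogalactan protein 16 at -0.74 are the members that exceed the limit by the least.

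Xyloglucan endotransglucosylase/hydrolases cut xyloglucan, a hemicellulose that coats cellulose, and join the ends to other chains. All 3 members of this class had low levels. The gene annotated as type 30 (HORVU.MOREX.r3.5HG0536200) was at 0.15, 0.22 and 0.41 FPKM in *mads1* and 3.68, 2.0 and 2.13 FPKM in WT. A gene annotated as type 25 (HORVU.MOREX.r3.3HG0233990) was at 0.3, 0.19 and 0.11 FPKM in *mads1* and 2.97, 3.43 and 1.65 FPKM in WT, and was the only member for which WT replicate 1 was not the highest WT library. The next identifier on chromosome 3H (HORVU.MOREX.r3.3HG0234000) carries the same annotation. Its *mads1* libraries held 0.1, 0 and 0 FPKM and its WT libraries 0.69, 0.51 and 0.44 FPKM, under the filter. How reads were divided between these neighbours, should they be near copies, was not tested.

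Expansins loosen walls without cutting polymers, and the beta-expansins form a large group in grasses. The 3 expansin genes differed widely among themselves. Expansin B2 (HORVU.MOREX.r3.1HG0056620) was at 8.87, 22.5 and 8.07 FPKM in *mads1*, against 276, 124 and 122 FPKM in WT. It was the second most abundant member in WT, and the *mads1* mean was 7.56% of the WT mean. Expansin A10 (HORVU.MOREX.r3.3HG0297700) was at 3.27, 8.28 and 3.93 FPKM in *mads1* and 49.2, 21.6 and 17.9 FPKM in WT, a log2 fold change of -2.26. Both genes were highest in *mads1* replicate 2 among the mutant libraries and in WT replicate 1 among the WT libraries. Expansin B3 (HORVU.MOREX.r3.6HG0598380) was also highest in WT replicate 1, but only at 1.10 times the mean of the other WT libraries. In *mads1* it was highest in replicate 1. It was at 7.72, 6.93 and 6.86 FPKM in *mads1* and 17.8, 16.7 and 15.7 FPKM in WT, with a log2 fold change of -1.12 and little spread within either genotype.

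Pectin was the largest class, with 6 genes. The pectin lyase-like superfamily holds enzymes that cleave the pectin backbone, and pectin acetylesterases take acetyl groups off it. The 3 pectin lyase-like genes were of moderate to low level. That on chromosome 1H (HORVU.MOREX.r3.1HG0069260) was at 2.86, 4.46 and 1.34 FPKM in *mads1* and 14.6, 8.51 and 8.89 FPKM in WT. That on chromosome 5H (HORVU.MOREX.r3.5HG0522840) was at 0.72, 1.98 and 0.49 FPKM in *mads1* and 9.31, 4.3 and 4.98 FPKM in WT, and that on chromosome 7H (HORVU.MOREX.r3.7HG0706740) at 0.68, 1.22 and 0.96 FPKM in *mads1* and 5.16, 3.23 and 3.49 FPKM in WT. Their *mads1* means were 27.0%, 17.2% and 24.1% of the WT means, in the order of the chromosomes, and each was highest in WT replicate 1 and in *mads1* replicate 2.

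The pectin acetylesterase genes parted into an abundant gene that held 47.1% of its WT level and a pair that did not. The gene on chromosome 2H (HORVU.MOREX.r3.2HG0121520) was at 37.5, 40.8 and 35.7 FPKM in *mads1* and 87.5, 75.0 and 79.6 FPKM in WT, with little spread within either genotype. On chromosome 3H, HORVU.MOREX.r3.3HG0329950 was at 0.81, 1.61 and 0.46 FPKM in *mads1* and 22.2, 12.5 and 13.3 FPKM in WT. Its neighbour by identifier, HORVU.MOREX.r3.3HG0329930, was at 2.93, 4.09 and 1.73 FPKM in *mads1* and 23.7, 15.2 and 16.5 FPKM in WT. The pair had like levels in WT, while the log2 fold changes were -3.11 for the first of the pair and -2.33 for the second. Here too the sharing of reads between neighbours was not tested.

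FASCICLIN-like arabinogalactan proteins are cell surface glycoproteins, many of them anchored to the plasma membrane by a lipid, and several are linked to cellulose deposition in secondary walls. FASCICLIN-like arabinogalactan 2 (HORVU.MOREX.r3.5HG0469340) had values of 0, 0.32 and 0.15 FPKM in *mads1*, against 20.9, 7.61 and 6.25 FPKM in WT. FASCICLIN-like arabinogalactan 7 (HORVU.MOREX.r3.5HG0490330) was more abundant, at 5.15, 5.82 and 3.36 FPKM in *mads1* and 111, 50.1 and 54.6 FPKM in WT, with a log2 fold change of -3.59. Against these, FASCICLIN-like arabinogalactan protein 16 (HORVU.MOREX.r3.5HG0517170) was at 90.1, 96.4 and 80.4 FPKM in *mads1* and 169, 134 and 146 FPKM in WT. It held 59.4% of the WT mean, with means of 88.9 ± 8.09 FPKM in *mads1* and 150 ± 17.8 FPKM in WT (SD, n = 3 each), and was the second most abundant member in *mads1*. The 3 genes of this class, all on chromosome 5H, thus covered nearly the whole span of differences seen among the members.

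Beta-1,3-glucanases cleave callose, a glucan laid down at new cell plates, at plasmodesmata and around developing pollen, and many act in defence. Beta-1,3-glucanase 2 (HORVU.MOREX.r3.3HG0295200) was at 0.32, 1.6 and 0.09 FPKM in *mads1* and 17.1, 5.46 and 5.81 FPKM in WT. WT replicate 1 was 3.03 times the mean of the other WT libraries, the highest such ratio among the members. Beta-1,3-glucanase 5 (HORVU.MOREX.r3.1HG0068970) was at 0.8, 1.37 and 2.1 FPKM in *mads1* and 14.0, 7.93 and 9.53 FPKM in WT, which is 13.6% of the WT mean.

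Laccases oxidise monolignols, the precursors of lignin, in the wall, and laccase 17 takes part in the lignification of stems in *Arabidopsis*. Both genes annotated as laccase 17 were close to undetected in *mads1*. The one on chromosome 3H (HORVU.MOREX.r3.3HG0302570) was at 0.09, 0.16 and 0.1 FPKM in *mads1* and 18.4, 8.36 and 8.8 FPKM in WT, which is 0.985% of the WT mean. The one on chromosome 4H (HORVU.MOREX.r3.4HG0388460) had values of 0, 0.04 and 0 FPKM in *mads1*, against 19.5, 6.15 and 7.24 FPKM in WT. With a pseudocount of 0.1 FPKM in place of 1 FPKM its log2 fold change was -6.43, the largest difference of any member, and that of the 3H gene was -5.70, so the order of the most strongly lowered members depended on this choice. Laccase 12 (HORVU.MOREX.r3.5HG0465270) differed from both, at 2.63, 3.14 and 2.6 FPKM in *mads1* and 10.4, 7.07 and 6.38 FPKM in WT, which is 35.0% of the WT mean.

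The gene annotated as cell wall protein precursor (HORVU.MOREX.r3.2HG0134410) was the most abundant member in WT. It was at 38.0, 92.5 and 15.3 FPKM in *mads1*, against 556, 350 and 346 FPKM in WT. The means were 48.6 ± 39.7 FPKM in *mads1* and 417 ± 121 FPKM in WT (SD, n = 3 each), and its *mads1* libraries were spread more widely than those of any other member with a mean above 10 FPKM in *mads1*. On the log2 scale the difference was -3.38.

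By class, the median log2 fold change of the members that passed the filter was -3.39 for the 3 laccases, -3.27 for the 3 FASCICLIN-like genes, -2.41 for both beta-1,3-glucanases and -2.26 for the 3 expansins. It was -2.17 for the pair of cellulose synthases, -1.72 for the 6 pectin genes and -1.54 for the pair of xyloglucan enzymes. With the genes under the filter included, the median was -0.60 for the cellulose and glucan synthases and -1.49 for the xyloglucan enzymes. In classes of so few genes with such unequal values, these medians do not rank one class above another.

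**Figure D2:**
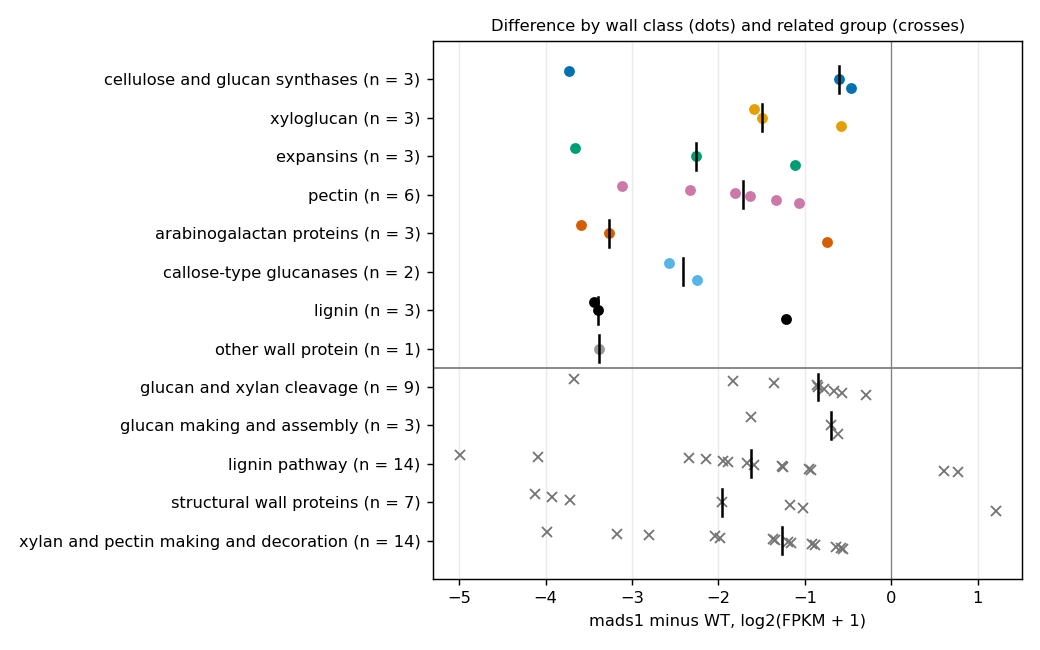
Difference between *mads1* and WT for each gene, on the log2(FPKM + 1) scale, with the 24 genes as dots by wall class, the 47 other wall-related genes of the list as crosses, and the median of each row as a black bar. All dots lie left of 0, and the cellulose synthases, expansins, FASCICLIN-like proteins and laccases each hold a gene near -3.4 or lower together with a gene above -1.3.

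Since FPKM is per length, levels can be added. The 24 members summed to 289, 400.3 and 245 FPKM in *mads1*, against 1646, 998 and 1017 FPKM in WT. The means were 311 ± 79.9 FPKM in *mads1* and 1220 ± 369 FPKM in WT (SD, n = 3 each), so that *mads1* held 25.5% of the WT sum. Every *mads1* sum lay below every WT sum, and WT replicate 1 alone exceeded the other WT libraries by more than the difference between the highest and lowest *mads1* sums.

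The make-up of the sum differed between genotypes. The cellulose and glucan synthases made up 29.3% of it in *mads1* and 12.9% in WT, and the FASCICLIN-like genes 30.1% in *mads1* and 19.1% in WT. The wall protein precursor made up 15.6% in *mads1* and 34.2% in WT, and the expansins 8.18% in *mads1* and 18.0% in WT. The 2H cellulose synthase, which was the member with mismatched identifiers, carried nearly all of its class and was first by level in *mads1* but the fourth in WT. Without it the mean sum of all members was 221 FPKM in *mads1* and 1082 FPKM in WT, so that *mads1* held 20.4% of the WT sum. Relative to WT, class sums were lowest for the xyloglucan enzymes, at 8.46%, the laccases, at 9.49%, and the beta-1,3-glucanases, at 10.5%, and highest for the cellulose and glucan synthases, at 57.9%. This last value rests on the member with mismatched identifiers. Without it the class summed to a mean of 0.38 FPKM in *mads1* and 19.3 FPKM in WT, which is 1.97% and the lowest of all classes.

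**Figure D3:**
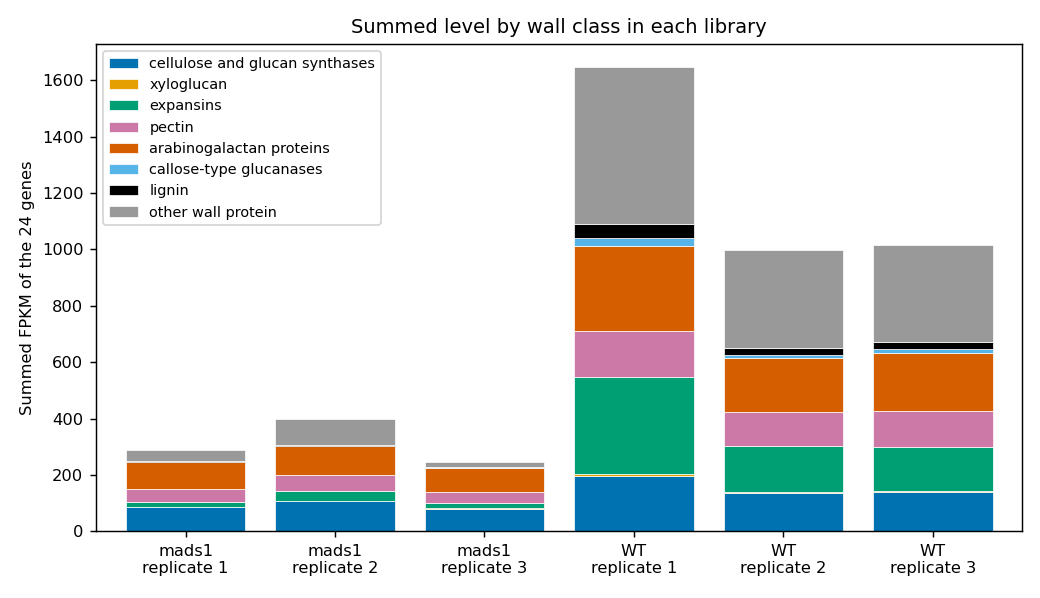
Summed FPKM of the 24 genes in each library, *mads1* on the left and WT on the right, stacked by wall class. The 3 *mads1* bars lie between 245 and 400.3 FPKM and the 3 WT bars between 998 and 1646 FPKM, and WT replicate 1 is the tallest.

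The excess of WT replicate 1 was uneven among the members. Its value over the mean of WT replicates 2 and 3 ran from 1.10 for expansin B3 to 3.03 for beta-1,3-glucanase 2, with a median of 1.64, against 0.974 over all genes tested, 1.20 over all genes called lower and 1.27 over the other listed genes. WT replicate 1 was the highest WT library for 21 of the 22 members that passed the filter and for 33.9% of all genes tested, and was at least 1.5 times the mean of the other WT libraries for 16 of the 22, against 5.67% of all genes tested. Members came from a list chosen by a difference between *mads1* and WT in either direction. For genes lower in *mads1*, high WT values help to meet that choice. Among the genes called lower, WT replicate 1 was the highest WT library for 74.8%, and the share at 1.5 times or more was 23.0%. In *mads1*, replicate 2 was the highest library for 18 of the 22, against 29.9% of all genes tested. What sets WT replicate 1 and *mads1* replicate 2 apart was not tested.

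The size of this excess was set beside a fold change that leaves WT replicate 1 out. Across the 24 members the log2 excess of WT replicate 1 and the log2 fold change computed from WT replicates 2 and 3 alone had a Pearson correlation of -0.75, and across all genes called lower it was -0.36. The log2(FPKM + 1) scale draws low genes toward 0 on both measures. On plain ratios, with the fold taken as WT over *mads1*, the Spearman rank correlation was 0.57 across the members. It was 0.32 across the genes called lower for which the fold could be computed. These correlations are across genes, which are not independent, both measures share WT replicates 2 and 3, and the members were chosen on a contrast that includes WT replicate 1. With WT replicate 1 left out, the median log2 fold change over all 24 members was -1.68, and each member was still lower in *mads1*.

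**Figure D4:**
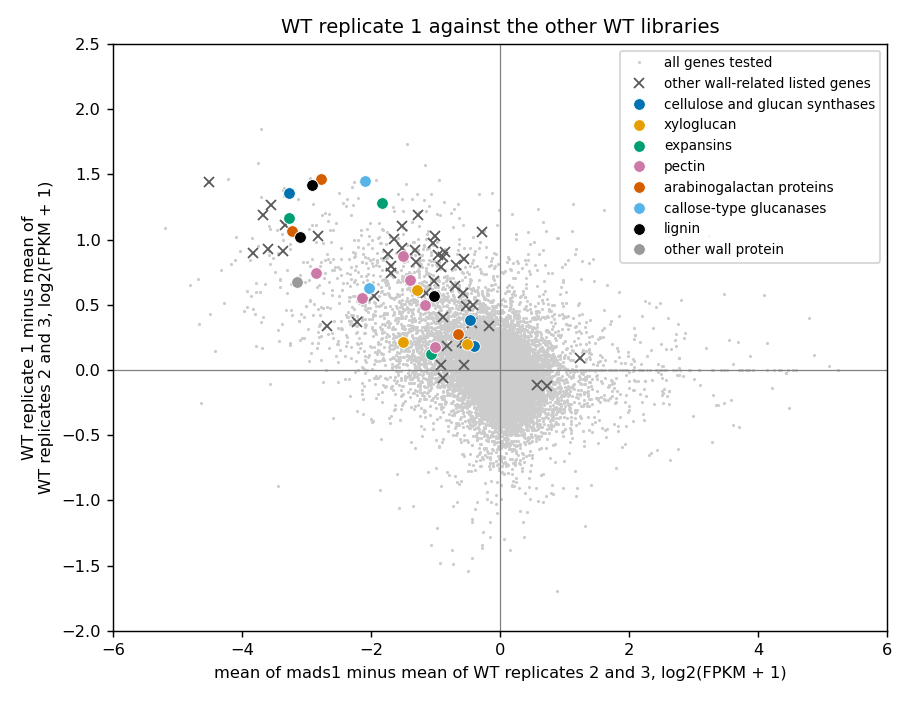
WT replicate 1 minus the mean of WT replicates 2 and 3 (vertical axis) against the mean of *mads1* minus the mean of WT replicates 2 and 3 (horizontal axis), both on the log2(FPKM + 1) scale, for all genes tested (grey points, 13 of them outside the plotted range), the 24 genes (coloured by wall class) and the other wall-related listed genes (crosses). All 24 coloured dots lie above 0 on the vertical axis and left of 0 on the horizontal one.

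Other genes of wall building stood in the same list of 605 under annotations that the words did not catch. They were grouped into 5 sets of 47 genes in all, again chosen by the contrast described. Of the 39 that passed the filter, 36 were called lower, 2 higher and 1 was not called. The share called lower was 92.3%, against 14.5% of all genes tested and 82.5% of the listed genes other than the 24 members, and since the contrast chose the list, nothing is read from this count or from those of the single sets. WT replicate 1 was the highest WT library for 42 of the 47, against 33.9% of all genes tested and 74.8% of those called lower. Its value over the mean of WT replicates 2 and 3 had a median of 1.90 over the 47, against 1.64 over the 24 members. The excess was thus not particular to the members.

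The lignin pathway set, which holds enzymes that make monolignols together with peroxidases and dirigent-like proteins, had 12 genes called lower and 1 called higher, of 13 that passed the filter. PHE ammonia lyase 1 is the entry enzyme of the phenylpropanoid pathway. A gene of this annotation (HORVU.MOREX.r3.6HG0596580) was at 5.19, 14.4 and 3.5 FPKM in *mads1* and 220.1, 98.4 and 93.6 FPKM in WT, a log2 fold change of -4.08. Another (HORVU.MOREX.r3.2HG0182080) was at 0.61, 1.27 and 0.75 FPKM in *mads1* and 4.22, 2.08 and 1.9 FPKM in WT, a log2 fold change of -0.96. A peroxidase gene (HORVU.MOREX.r3.3HG0254990) went the other way, at 22.4, 23.0 and 22.4 FPKM in *mads1* and 13.6, 16.2 and 13.6 FPKM in WT, a log2 fold change of 0.61. So did a peroxidase gene under the filter (HORVU.MOREX.r3.4HG0351890), at 0.78, 0.89 and 0.74 FPKM in *mads1* and 0, 0.09 and 0.09 FPKM in WT. Peroxidases oxidise monolignols as laccases do, and their family is large and also serves other roles.

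Among structural proteins, the gene annotated as proline-rich protein 4 with the identifier HORVU.MOREX.r3.2HG0105470 was at 73.3, 235 and 40.5 FPKM in *mads1* and 2379, 1339 and 1219 FPKM in WT. With the 2 other genes of the same annotation it summed to a mean of 181 FPKM in *mads1* and 2376 FPKM in WT, more than all 24 members together in WT. A glycine-rich protein gene (HORVU.MOREX.r3.7HG0749040) was higher, at 1.53, 1.44 and 1.59 FPKM in *mads1*, and was listed at 0.14, 0 and 0.14 FPKM in WT. Its 2 identifiers name different chromosomes, 7H and 4H, so its annotation and binding may belong to another gene than its FPKM values.

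The enzymes that make and decorate xylan and pectin included TRICHOME BIREFRINGENCE-LIKE 22 (HORVU.MOREX.r3.7HG0667240), of a family that adds acetyl groups to wall polymers. It was at 0.34, 0.79 and 0.18 FPKM in *mads1* and 39.2, 14.8 and 16.6 FPKM in WT. Of the 12 genes of this set that passed the filter, 11 were called lower, and galacturonosyltransferase 1 (HORVU.MOREX.r3.4HG0334870), which builds the pectin backbone, was not called, with a log2 fold change of -0.56. All 6 genes of glucan and xylan cleavage and all 3 of glucan making that passed the filter were called lower, among them a glycosyl hydrolase 9B8 gene (HORVU.MOREX.r3.6HG0616240) at 0.42, 0.79 and 0.22 FPKM in *mads1* and 27.4, 13.6 and 14.5 FPKM in WT.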

How the data were processed

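The authors had libraries made and sequenced by a company, trimmed the reads, aligned them to a barley reference and, per gene, deposited FPKM values estimated with RSEM (version 1.3.3). The aligner and the genome build are not given in the sources used here, and identifiers are those of Morex version 3. The deposited FPKM values hold no read counts, so absolute depth is unknown, and limma on log2(FPKM + 1) took the place of a count test. Library totals were 939700 to 966100 FPKM in *mads1* and 993600 to 994500 FPKM in WT. Totals of this size are more usual for TPM, so the unit of the deposited values, called FPKM in the methods, is in some doubt. Both units are per length.

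Samples were grouped by the genotype in their labels. Genes at 1 FPKM or more in 3 or more of the 6 libraries were fitted (limma 3.58.1 in R 4.3.3, eBayes with a trend) and called where the Benjamini-Hochberg adjusted p was under 0.05 and the fold change 1.5 or more. The procedure was tested on simulated data. All members were named. The members, the wall classes and the 5 sets of related genes were chosen with earlier results of these data known. Alternatives covered the pseudocount, the filter, the scaling, the variance trend, the threshold, the replicate number as a block and each library left out. The samples are labelled replicates and described as separate pools. Sequences, coordinates and wall genes outside the list were not analysed here.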

Additional observations from a re-analysis of the deposited data

How the results depend on the processing

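All 326 values of the 22 members over the alternatives stayed below 0, and 19 moved by at least 1 SD, 12 with a pseudocount of 0.1 and 7 with one of 0.5. Members called numbered 21 to 22 with a library left out, with medians of -2.41 to -1.93. Without WT replicate 1 and *mads1* replicate 2 together, chosen after seeing the data, they were 22 and -2.10. With a filter at 5 FPKM, 18 members were tested and 18 were called. The count over all genes was 3794 (2607 lower, 1187 higher), and with the adjusted p alone 7779 (4011 lower, 3768 higher). With the filter at 5 FPKM, which tests fewer genes, 769 were higher. Rescaling to the same total moved the median of all genes tested to 0.11, and quantile normalization also to 0.11.

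With a pseudocount of 0.1 the members' median was -2.88, and the class medians were -3.01 (cellulose and glucan synthases), -3.06 (xyloglucan), -2.26 (pectin), -3.82 (FASCICLIN-like), -3.43 (beta-1,3-glucanases) and -5.70 (laccases). With 0.5 they were -2.08 (xyloglucan) and -4.23 (laccases). A smaller pseudocount widens the differences of low genes by construction. Without the filter, the cellulose and glucan synthases had -0.60. Without the member with mismatched identifiers, also chosen afterwards, the sum was 221 FPKM in *mads1* and 1082 FPKM in WT.

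Deviations of same-numbered libraries correlated at -0.07, -0.28 and 0.20, so no pairing common to all replicate numbers was seen. With so few libraries, these values cannot exclude a pairing. With the replicate block, 3781 genes changed and 22 members were called. The planned look at wall-family genes outside the list was not run, since the reference table used here holds none of the identifiers. Unknown depth limits the members near 0 FPKM most.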
